A study of Homo sapiens with 6 samples.

Results

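The mitosis genes described here are a list of 51 human gene symbols, most of whose products drive or carry out cell division. They were chosen by name, with earlier results of these data known. Of these, 48 had counts and were analysed among 26195 gene symbols, and the other 3 symbols were not analysed here. Messenger RNA was measured in PC9, an EGFR-mutant cell line established from a human lung adenocarcinoma, by Drop-seq, which captures single cells in droplets and tags each transcript molecule with a unique molecular identifier (UMI). There was 1 library for each of 6 conditions, and all cells were of this single line.

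No drug was given to the untreated cells, which had 5% serum and no virus, or to the scrambled cells, which carried a pLVTHM lentivirus with a scrambled shRNA and had 10% serum after transduction. The other 4 libraries had erlotinib, which blocks the kinase EGFR, at 2 µM for 1 day. The CPI-455 library also had 6.25 µM of CPI-455, which blocks histone demethylases of the KDM5 family, for 4 days, in 5% serum and without virus. The labels do not settle when in those 4 days erlotinib was added. The KDM5A shRNA library (pLVTHM) received erlotinib on day 4 after transduction, the library labelled KDM5A and KDM5B shRNA (2 pLVTHM viruses) on day 5, and the KDM5A cDNA library (pLenti, with CMV in the vector's name) on day 6, all in 10% serum. Every erlotinib library thus also had a KDM5 manipulation, and both drug-free libraries had none.

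Entry into mitosis is driven by the kinase CDK1 with a B-type cyclin, and exit by a ubiquitin ligase, the anaphase-promoting complex, which marks cyclin B and securin for destruction. Between these steps chromosomes are condensed, attached to spindle microtubules through kinetochores and pulled apart, and the cell is cleaved. Many of these genes are transcribed in G2 and M phase under the MuvB complex, which works with the repressive p130 and E2F4 proteins in resting cells and with B-MYB and FOXM1 in dividing cells, and which reads a promoter element with the core TTTGAA. Elements with the letters CCAAT, bound by NF-Y, often lie nearby. Mitosis genes are widely used as a readout of proliferation in tumour cells.

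Barcodes counted as cells if they had 500 or more UMIs, no more than 20% of them mitochondrial. This left 1166 untreated, 263 scrambled, 202 CPI-455, 374 KDM5A shRNA, 152 labelled KDM5A and KDM5B shRNA and 131 KDM5A cDNA cells, with between 590091 and 3956647 UMIs per library. Median UMIs per cell were 1493.5 untreated and 2985.5 to 3762.5 elsewhere. Mitochondrial genes held 3.98% and 5.03% of UMIs in the drug-free libraries and 7.04% to 9.18% in the erlotinib libraries. Barcodes ending in an undetermined base made up 3.52% of untreated cells and 22.8% to 31.6% of the others, and 1 kept barcode was shared by 2 libraries. Of 8 epithelial markers, 7 were present in all 6 libraries at a sum of 8215 to 12099 CPM (UMIs of a gene for every 1000000 UMIs of the library), while 12 markers of blood, endothelial and stromal cells summed to 4.64 to 15.2 CPM. KDM5A stood at 81.9 CPM scrambled, 56.4 with its shRNA, 41.3 in the library labelled KDM5A and KDM5B shRNA and 164 with its cDNA. KDM5B was at 60.4 CPM untreated and 46.4 scrambled, and at 151 with KDM5A shRNA, 102 in the CPI-455 library, 94.9 with KDM5A cDNA and 138 in the library labelled KDM5A and KDM5B shRNA. It was thus above both drug-free libraries in all 4 erlotinib libraries, and the level in the library labelled for its shRNA was neither below scrambled nor the lowest of the 4.

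As a sum, the 48 mitosis genes held 9661 CPM in untreated cells (95% Poisson interval 9565 to 9759, from 38226 UMIs) and 6519 CPM in scrambled cells (6380 to 6659, 8438 UMIs). With erlotinib the sum was 1967 CPM with CPI-455 (1875 to 2063, 1719 UMIs), 940.2 CPM with KDM5A shRNA (893 to 989, 1501 UMIs), 1896 CPM in the library labelled KDM5A and KDM5B shRNA (1797 to 1999, 1376 UMIs) and 1781 CPM with KDM5A cDNA (1675 to 1892, 1051 UMIs). Both drug-free libraries lay above all 4 erlotinib libraries, and no interval of one kind touched one of the other. All 48 genes were detected in 4 of the libraries. GTSE1 had no UMI with KDM5A shRNA, and CDK1, TTK, CKAP2L and PSRC1 had none with KDM5A cDNA. These intervals cover counting error only, and in a sum over a library fewer cells with a transcript and less of it per cell cannot be told apart.

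**Figure D1:**
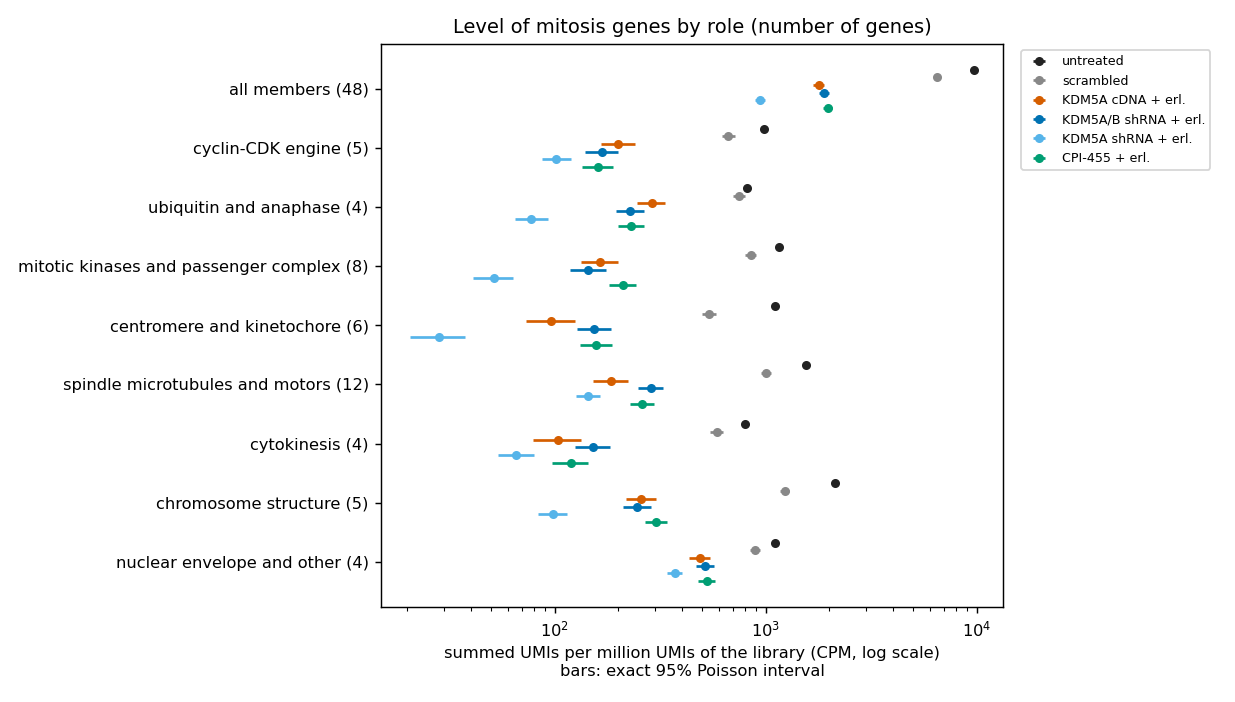
Summed level of the mitosis genes (CPM, log axis) for all 48 genes and for 8 groups by role, 1 point per library with its exact 95% Poisson interval. In every group both drug-free libraries lie above the 4 erlotinib libraries, and KDM5A shRNA is the lowest.

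The 4 erlotinib libraries were tested against the 2 drug-free libraries with edgeR's quasi-likelihood test over all 10445 genes with enough counts. This p compares erlotinib together with some KDM5 manipulation against the absence of both, and the 4 libraries are not replicates of 1 condition. Of 47 mitosis genes tested, 40 fell and 0 rose at an adjusted p under 0.05. Over all genes tested 13.5% fell and 10.0% rose. The median log2 fold of the 47 genes was -2.86, from -5.16 for CDK1 to -0.48 for ARL6IP1, against a median of 0.0068 over all genes. All 48 genes had their 4 erlotinib levels below both drug-free levels, which held for 26.7% of all genes tested. Without the untreated library 30 of the genes were still called, against 9.78% of all genes, and in the transduced libraries alone 30, against 7.93%. CKAP2L, PSRC1, CENPA, MKI67, GTSE1, CENPF, BIRC5, CDC25C and CKAP5 lost the call in both cases. Of these 2 fits, BUB1 lost it only without the untreated library, and HMMR only in the transduced libraries. With virus and serum, which went together, as a term in the fit, 37 genes were called lower, against 13.1% of all genes.

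**Figure D2:**
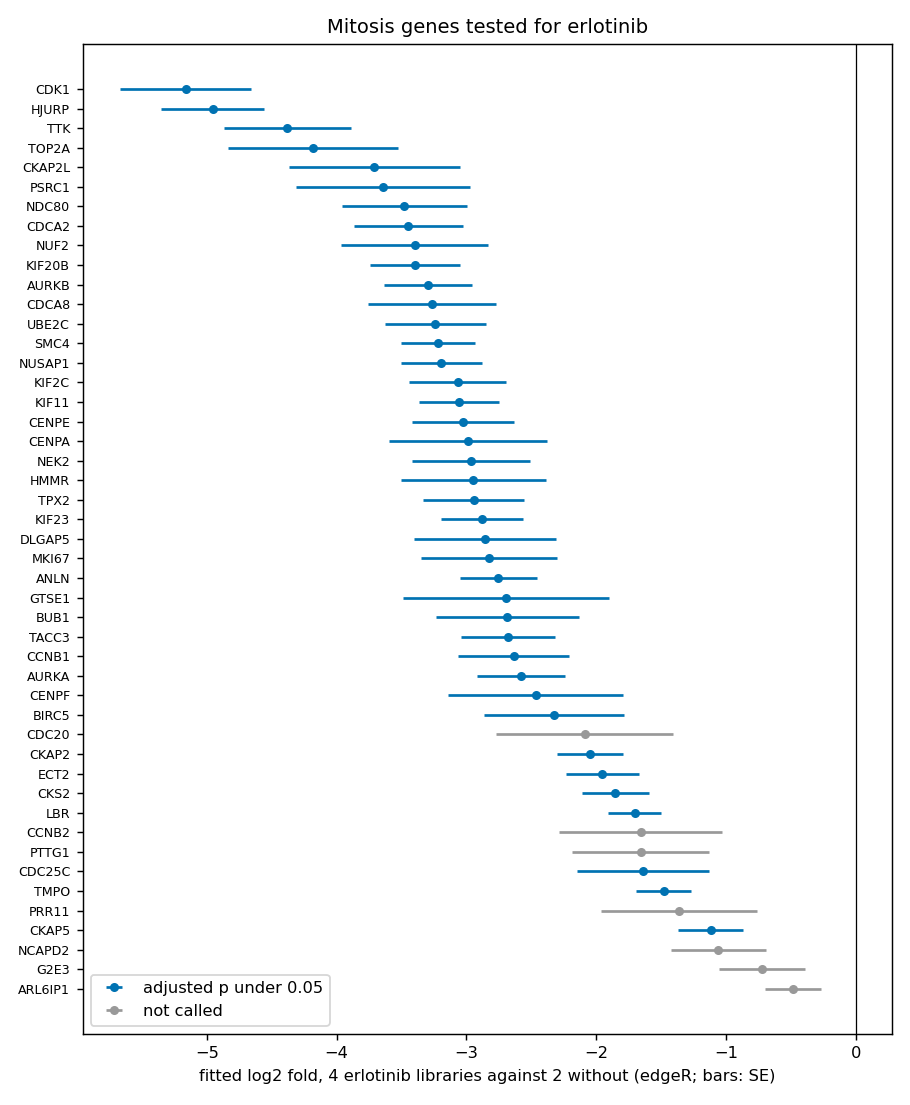
Fitted log2 fold of each of the 47 tested mitosis genes, 4 erlotinib against 2 drug-free libraries (edgeR, bars: SE). All 47 points lie below 0, and the 7 grey ones did not pass the adjusted p of 0.05.

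The promoters of 3 genes with large falls and of 2 that were not called are shown with the TTTGAA core and CCAAT in capitals, since these letters are the ones by which the G2 and M phase programme is known. Each sequence is RefSeq's window of 300 bases in build GRCh38.p14, from 250 bases before to 50 after the start site, on the gene's own strand, and motifs were sought on both strands (TTCAAA and ATTGG on the other). CDK1, HJURP and TOP2A are the genes with large falls, and CCNB2 and ARL6IP1 are those that did not pass. CDK1 (+ strand, chr10:60778228-60778527) and ARL6IP1 (- strand, chr16:18801500-18801799) each have 2 listed windows, and the one with more matches is printed. The others are HJURP (- strand, chr2:233854486-233854785), TOP2A (- strand, chr17:40417847-40418146) and CCNB2 (+ strand, chr15:59104896-59105195).
CDK1: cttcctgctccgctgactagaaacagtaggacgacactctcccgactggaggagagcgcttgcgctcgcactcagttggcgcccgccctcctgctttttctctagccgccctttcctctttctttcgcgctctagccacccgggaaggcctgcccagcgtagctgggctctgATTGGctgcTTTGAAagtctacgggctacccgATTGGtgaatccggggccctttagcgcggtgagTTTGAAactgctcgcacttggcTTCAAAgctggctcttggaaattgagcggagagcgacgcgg
HJURP: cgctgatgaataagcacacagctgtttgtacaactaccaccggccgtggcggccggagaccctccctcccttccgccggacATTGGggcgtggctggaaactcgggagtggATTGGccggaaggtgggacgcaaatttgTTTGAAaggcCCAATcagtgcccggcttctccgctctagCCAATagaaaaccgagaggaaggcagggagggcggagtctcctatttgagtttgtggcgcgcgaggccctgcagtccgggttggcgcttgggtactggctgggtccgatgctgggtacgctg
TOP2A: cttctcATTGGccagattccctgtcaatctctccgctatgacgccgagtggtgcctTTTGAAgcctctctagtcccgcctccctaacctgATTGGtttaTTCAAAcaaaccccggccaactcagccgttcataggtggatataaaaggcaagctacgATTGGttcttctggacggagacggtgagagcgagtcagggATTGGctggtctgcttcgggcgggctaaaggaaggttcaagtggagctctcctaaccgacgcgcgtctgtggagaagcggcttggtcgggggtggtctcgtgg
CCNB2: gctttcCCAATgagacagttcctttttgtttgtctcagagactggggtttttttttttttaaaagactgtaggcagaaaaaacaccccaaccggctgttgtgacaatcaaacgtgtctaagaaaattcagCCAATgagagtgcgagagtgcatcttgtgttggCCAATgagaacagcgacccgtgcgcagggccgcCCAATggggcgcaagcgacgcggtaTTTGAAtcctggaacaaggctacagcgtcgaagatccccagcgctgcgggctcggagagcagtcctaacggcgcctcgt
ARL6IP1: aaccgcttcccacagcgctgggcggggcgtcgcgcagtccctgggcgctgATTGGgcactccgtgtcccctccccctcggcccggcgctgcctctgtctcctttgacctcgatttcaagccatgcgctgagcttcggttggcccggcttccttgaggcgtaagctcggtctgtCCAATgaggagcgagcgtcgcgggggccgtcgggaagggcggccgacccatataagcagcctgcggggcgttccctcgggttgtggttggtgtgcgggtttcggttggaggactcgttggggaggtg

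The CDK1 window held 3 TTTGAA matches, 1 of them at positions -13 to -8 from the start site, and 2 CCAAT matches. HJURP held 1 TTTGAA and 4 CCAAT matches, and TOP2A 2 and 4. In CCNB2 the TTTGAA core lay at positions -29 to -24, and 4 CCAAT matches began at positions -244, -120, -87 and -54. The ARL6IP1 window held no TTTGAA and 2 CCAAT matches. RefSeq windows were matched for 42 of the 48 genes, all but TTK, CDCA2, UBE2C, TPX2, AURKA and BIRC5. TTTGAA was in at least 1 window of 28 of the 42 (66.7%), against 18.2% of 27305 genes with a window. CCAAT was in 31 (73.8%), against 39.7%, and both were in 23 (54.8%), against 7.26%. The 2 motifs do not overlap in their letters except at an end base. Among the tested genes the median log2 fold was -2.87 for the 28 with TTTGAA and -2.68 for the 13 without. A match is a description of the letters and not of a bound site, and the smallest falls lay on both sides: G2E3 has the core and ARL6IP1 does not.

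In the following, levels are given in CPM for untreated and scrambled cells and then for the erlotinib libraries in the order CPI-455, KDM5A shRNA, labelled KDM5A and KDM5B shRNA, and KDM5A cDNA. Counts come from transcript ends and are compared within a gene and not between genes. Log2 folds are those of the 4 erlotinib against the 2 drug-free libraries. Counts of genes that fell are of those called at an adjusted p under 0.05, which held for 13.5% of all genes tested.

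The cyclin-CDK engine fell in 4 of its 5 genes (median log2 fold -1.85). CDK1, the kinase that starts mitosis, stood at 269 CPM untreated and 157 scrambled, and 9.16, 3.13, 11.0 and 0 CPM with erlotinib. Its log2 fold came to -5.16 (SE 0.51, edgeR adjusted p = 0.000308), and the 0 with KDM5A cDNA allows up to 5.08 CPM at 3 counts. The 6 levels left a wide gap, with all erlotinib levels at 11.0 CPM or less. CKS2, a small CDK-binding subunit with the most UMIs of the group, was at 412 CPM untreated and 218 scrambled, and 68.7, 82.1, 85.4 and 103 CPM with erlotinib. It fell by less than CDK1, and its fold was -1.85 in log2 (edgeR, SE 0.26, adjusted p = 0.000932). CCNB2, cyclin B2, read 81.1 CPM untreated and 79.6 scrambled, and 30.9, 4.38, 20.7 and 52.5 CPM with erlotinib. Its KDM5A cDNA level lay closer to the scrambled level than to the KDM5A shRNA level, and the log2 fold of -1.66 (adjusted p = 0.0918) was not called. CDC25C, the phosphatase that activates CDK1, was scarce at 32.6 CPM untreated and 13.1 scrambled, and 11.4, 3.13, 9.64 and 6.78 CPM with erlotinib, and its fold was -1.64 in log2 (edgeR, SE 0.51, adjusted p = 0.0399). CCNB1, cyclin B1, had a log2 fold of -2.63 (adjusted p = 0.0032).

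Of the 4 ubiquitin and anaphase genes, only UBE2C was called lower (log2 fold -3.24, adjusted p = 0.000561). UBE2C is the E2 enzyme of the anaphase-promoting complex. PTTG1 encodes securin, the inhibitor of separase, and stood at 357 CPM untreated and 451 scrambled, and 149, 33.8, 132 and 197 CPM with erlotinib. The KDM5A shRNA library was the lowest and the KDM5A cDNA library the highest of the erlotinib libraries, and the log2 change of -1.66 (SE 0.53, edgeR adjusted p = 0.0565) did not pass. CDC20, an activator of the complex, read 136 CPM untreated and 123 scrambled, and 49.2, 3.13, 28.9 and 45.8 CPM with erlotinib, and its fold was -2.09 in log2 (edgeR, SE 0.68, adjusted p = 0.0637). As with PTTG1, its 4 erlotinib levels spread over a wide range and all lay below both controls. G2E3, a ubiquitin ligase of G2 and M phase, was at 50.04 CPM untreated and 31.7 scrambled, and 14.9, 28.8, 30.3 and 22.03 CPM with erlotinib. Its scrambled and KDM5A shRNA levels were close, and the log2 fold was -0.72 (adjusted p = 0.134). Leaving out the KDM5A shRNA library brought CDC20, PTTG1 and CCNB2 past the threshold.

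All 8 mitotic kinases and chromosomal passenger genes fell (median log2 fold -2.95). TPX2, the activator of Aurora A on the spindle, stood at 381 CPM untreated and 318 scrambled, and 72.1, 17.5, 49.6 and 42.4 CPM with erlotinib. Its log2 fold came to -2.94 (SE 0.39, edgeR adjusted p = 0.00106), and the controls were close to each other. TTK, the checkpoint kinase MPS1, was at 98.1 CPM untreated and 53.3 scrambled, and 4.58, 2.51, 6.89 and 0 CPM with erlotinib, and its fold was -4.38 in log2 (edgeR, SE 0.49, adjusted p = 0.000336). BUB1, a checkpoint kinase of the kinetochore, read 53.3 CPM untreated and 33.2 scrambled, and 13.7, 1.25, 5.51 and 8.47 CPM with erlotinib. The BUB1 fold of -2.68 (adjusted p = 0.0081) rested on 23 erlotinib UMIs. Aurora A (AURKA, -2.58), Aurora B (AURKB, -3.29), survivin (BIRC5, -2.32), borealin (CDCA8, -3.27) and the centrosomal kinase NEK2 (-2.96) were also called lower.

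The 6 centromere and kinetochore genes fell as well (median log2 fold -3.21), and their sum was lowest in the KDM5A shRNA library, at 28.2 CPM against 96.6 to 158 CPM in the other erlotinib libraries. CENPF, a large kinetochore protein, stood at 539 CPM untreated and 222 scrambled, and 104, 12.5, 101 and 57.6 CPM with erlotinib. The KDM5A shRNA level was far under the CPI-455 level, and the log2 change of -2.47 (SE 0.67, edgeR adjusted p = 0.0368) was one of the less certain of the group. HJURP, the chaperone that loads the centromeric histone, was at 135 CPM untreated and 74.9 scrambled, and 4.58, 1.88, 5.51 and 1.69 CPM with erlotinib. At most 5.51 CPM remained with erlotinib, and its log2 fold came to -4.95 (SE 0.40, edgeR adjusted p = 5.88e-05). The microtubule-binding NDC80 (-3.48) and NUF2 (-3.40), the motor CENPE (-3.03) and the centromeric histone CENPA (-2.99) were called lower too.

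All 11 tested spindle genes fell (median log2 fold -2.95). NUSAP1, a microtubule-bundling protein, stood at 252 CPM untreated and 205 scrambled, and 36.6, 18.2, 30.3 and 11.9 CPM with erlotinib, and its fold was -3.19 in log2 (edgeR, SE 0.31, adjusted p = 0.000167). CKAP2L, a spindle pole protein, was at 51.3 CPM untreated and 23.2 scrambled, and 5.72, 0.626, 5.51 and 0 CPM with erlotinib, and its log2 fold was -3.71 (adjusted p = 0.00397). PSRC1, a microtubule-associated protein, read 23.5 CPM untreated and 12.4 scrambled, and 2.29, 0.626, 2.76 and 0 CPM with erlotinib , with a log2 fold of -3.64 (adjusted p = 0.00415). Both rested on 10 or fewer UMIs over all erlotinib libraries. CKAP5, a microtubule polymerase, fell least of the group, from 132 CPM untreated and 103 scrambled to 61.8, 48.2, 64.8 and 35.6 CPM, a change of -1.12 in log2 (edgeR, SE 0.25, adjusted p = 0.0105). KIF11, the motor that separates the spindle poles, was at 77.6 CPM untreated and 62.6 scrambled, and 11.4, 5.64, 9.64 and 6.78 CPM with erlotinib, with a log2 fold of -3.06 (adjusted p = 0.000205). GAS2L3, a crosslinker of actin and microtubules, was too scarce to be tested, at 32.6 CPM untreated and 6.95 scrambled, and 5.72, 0.626, 2.76 and 3.39 CPM with erlotinib. The remaining called genes were the depolymerase KIF2C (-3.07), the spindle protein HMMR (-2.95), the spindle assembly factor DLGAP5 (-2.86), and GTSE1 (-2.70), TACC3 (-2.68) and CKAP2 (-2.05), which bind or stabilise spindle microtubules.

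Cytokinesis genes fell in 4 of 4 (median log2 fold -2.82). ANLN, the scaffold anillin of the cleavage ring, stood at 320.2 CPM untreated and 248 scrambled, and 46.9, 23.8, 60.6 and 35.6 CPM with erlotinib, a change of -2.76 in log2 (edgeR, SE 0.30, adjusted p = 0.000272). ECT2, the exchange factor that activates RhoA at the cleavage site, was at 153 CPM untreated and 141 scrambled, and 30.9, 24.4, 53.7 and 42.4 CPM with erlotinib, and its fold was -1.95 in log2 (edgeR, SE 0.28, adjusted p = 0.00112). The 4 erlotinib levels of both genes lay well under the controls. The motors KIF20B (-3.40) and KIF23 (-2.88) of the midzone and midbody were called lower too.

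Among chromosome structure genes, 4 of 5 fell (median log2 fold -3.22). SMC4, the condensin ATPase subunit, stood at 764 CPM untreated and 451 scrambled, and 75.5, 40.1, 60.6 and 81.3 CPM with erlotinib, a change of -3.22 in log2 (edgeR, SE 0.29, adjusted p = 0.000109). TOP2A, the topoisomerase that untangles sister DNA, was at 685 CPM untreated and 239 scrambled, and 40.1, 8.77, 44.1 and 8.47 CPM with erlotinib, and its log2 fold came to -4.18 (SE 0.65, edgeR adjusted p = 0.00462). TOP2A was also further apart between the 2 controls than most of the list. MKI67, the Ki-67 protein that coats mitotic chromosomes, read 494 CPM untreated and 348 scrambled, and 79.0, 13.8, 70.3 and 76.3 CPM with erlotinib, with a log2 fold of -2.83 (adjusted p = 0.00823). NCAPD2, a regulatory condensin subunit, behaved unlike SMC4, at 139 CPM untreated and 169 scrambled, and 106, 33.2, 66.1 and 88.1 CPM with erlotinib. Its CPI-455 level lay below the untreated level but closer to it than to the KDM5A shRNA level. The log2 change of -1.06 (SE 0.36, edgeR adjusted p = 0.0613) was not called. CDCA2, a phosphatase subunit that acts on chromatin, was at 45.7 CPM untreated and 27.8 scrambled, and 2.29, 2.51, 5.51 and 3.39 CPM with erlotinib, with a log2 fold of -3.45 (adjusted p = 0.000487).

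The nuclear envelope and other genes fell in 2 of 4 (median log2 fold -1.42). ARL6IP1, a membrane-shaping protein of the endoplasmic reticulum that is not specific to dividing cells, stood at 433 CPM untreated and 311 scrambled, and 264, 221, 310.0 and 239 CPM with erlotinib. Its log2 fold came to -0.48 (SE 0.21, edgeR adjusted p = 0.123), and the level labelled KDM5A and KDM5B shRNA almost equalled the scrambled level. TMPO, a lamina-binding protein, was at 267 CPM untreated and 255 scrambled, and 121, 78.3, 82.7 and 83.0 CPM with erlotinib, a change of -1.48 in log2 (edgeR, SE 0.21, adjusted p = 0.00104). LBR, the lamin B receptor, fell by 1.70 on the log2 scale. PRR11, a gene of G2 and M phase, read 195 CPM untreated and 123 scrambled, and 85.8, 11.9, 66.1 and 86.4 CPM with erlotinib, with a log2 fold of -1.36 (adjusted p = 0.14). As a share of all mitosis UMIs, these 4 genes took 11.5% untreated and 13.7% scrambled, and 26.8%, 39.6%, 27.3% and 27.3% with erlotinib.

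Each erlotinib library was then set against its nearest drug-free library, with no test since each condition had 1 library. Ratios have exact 95% counting intervals, and a call means that the interval lay wholly below 0. Such intervals, here and below, count each UMI as an independent draw, although UMIs of a cell go together, so they are too narrow. CPI-455 against untreated cells gave a log2 ratio of the sum of -2.30 (-2.37 to -2.23). All 48 genes lay below 0 and 48 were called, against 22.1% of all genes. KDM5A shRNA against scrambled cells gave -2.79 (-2.87 to -2.71), with 47 of 48 called against 25.2% of all genes. The exception was G2E3, at -0.14 (-0.78 to 0.51). The library labelled KDM5A and KDM5B shRNA gave -1.78 (-1.86 to -1.70), with 44 called against 23.1%. Its exceptions were G2E3, CDC25C, GAS2L3 and ARL6IP1, the last at -0.0026 (-0.24 to 0.24). KDM5A cDNA gave -1.87 (-1.97 to -1.78), with 45 called against 21.4% and G2E3, CDC25C and GAS2L3 as exceptions. Median log2 ratios over the genes were -2.57, -3.53, -1.97 and -2.19 in the same order, against medians over all genes from -0.084 to 0.011. The last 3 comparisons share the scrambled library, so they are not independent.

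**Figure D3:**
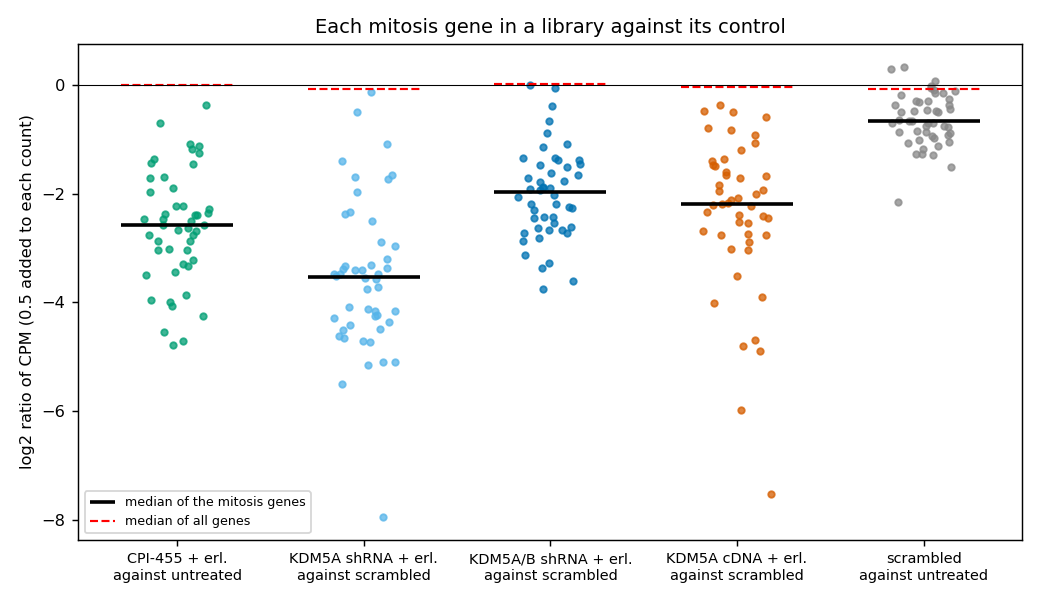
Log2 ratio of CPM (0.5 added to each count) of each of the 48 mitosis genes for 4 erlotinib libraries against a drug-free library and for scrambled against untreated, 1 point per gene. Black lines are medians of the mitosis genes (-2.57, -3.53, -1.97, -2.19 and -0.66), and dashed lines medians of all genes.

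The 4 erlotinib libraries were not alike in these genes. The sum with KDM5A shRNA was lower than with CPI-455 by a log2 ratio of -1.07 (-1.17 to -0.96), and the library labelled KDM5A and KDM5B shRNA stood above it by 1.01 (0.91 to 1.12). KDM5A cDNA stood above it by 0.92 (0.81 to 1.04). For 34 of 48 genes KDM5A shRNA had the lowest level of the 4, and for 0 the highest. The same count over all genes was not made, so how far it departs from other genes is not known. Of 40 genes with at least 10 UMIs, 36 were lower with KDM5A shRNA than with CPI-455, against 57.1% of all genes. Of 39 genes with at least 10 UMIs, 37 were higher in the library labelled KDM5A and KDM5B shRNA than with KDM5A shRNA. The median log2 ratio of the 39 genes was 1.51 against 0.038 over all genes. Intervals lay wholly above 0 for 27 of the 39, against 9.59% of all genes. CENPF was at 3.01 (2.28 to 3.80), CDC20 at 3.21 (1.76 to 4.97), HMMR at 2.82 (1.76 to 4.00) and PRR11 at 2.47 (1.68 to 3.32). Such intervals do not cover the sampling of cells, and some genes rested on few cells. HMMR was in 5.92% of the cells labelled KDM5A and KDM5B shRNA before thinning, and CDC20 in 1.07% of KDM5A shRNA cells. By contrast CKS2 at 0.058 (-0.40 to 0.50), TMPO at 0.078 (-0.39 to 0.53) and LBR at -0.070 (-0.63 to 0.47) had intervals that held 0. The other 3 libraries lay close together. The library labelled KDM5A and KDM5B shRNA against CPI-455 gave -0.053 (-0.16 to 0.050), KDM5A cDNA against CPI-455 -0.14 (-0.26 to -0.032), and KDM5A cDNA against the library labelled KDM5A and KDM5B shRNA -0.090 (-0.21 to 0.027). The sign of these 3 values changed with the processing. Time since transduction differed among the transduced libraries and cannot be told apart from the vectors.

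Processed pseudogenes took 1.32% of UMIs with KDM5A shRNA and 2.49% to 3.42% in the other erlotinib libraries, against 1.38% scrambled and 1.02% untreated. Their part in the difference between KDM5A shRNA and the others was not tested. With this split as a term in the edgeR fit, 44 of the mitosis genes were called lower, against 5.85% of all genes. Copies of the members themselves were scarce: over all libraries the 3 ARL6IP1 pseudogenes held 3, 53 and 41 UMIs against 3066 for ARL6IP1, and CDC20P1 held 26 against 793 for CDC20. TMPO-AS1, the antisense neighbour of TMPO, held 46 UMIs against 1727. The strand setting of the counting is not given in the sources used here, so reads of TMPO and TMPO-AS1 cannot be told apart.

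Between the 2 drug-free libraries, scrambled cells had less of the mitosis sum than untreated cells, with a log2 ratio of -0.57 (-0.60 to -0.53). Of the 48 genes 45 were lower, and 36 had intervals wholly below 0, against 16.4% of all genes. GAS2L3 was lowest at -2.23 (-3.39 to -1.26), then TOP2A at -1.52 (-1.69 to -1.35) and CDC25C at -1.31 (-2.14 to -0.58). PTTG1 at 0.34 (0.20 to 0.48) and NCAPD2 at 0.29 (0.056 to 0.52) were above 0 with their intervals, and CCNB1 at 0.076 (-0.13 to 0.28) was not distinguishable. By role the log2 ratio ran from -1.04 for the kinetochore genes to -0.13 for the ubiquitin and anaphase genes. The S phase genes, counted in the same way, went the other way, at 0.37. These libraries differ in virus, vector and serum (10% against 5%), which cannot be told apart.

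Cells were next compared one by one, each thinned to 1000 UMIs so that depth was equal. Shallower cells were left out, 344 of them untreated, 41 scrambled, 38 CPI-455, 42 KDM5A shRNA, 28 labelled KDM5A and KDM5B shRNA and 26 KDM5A cDNA. A median untreated cell then held 6 mitosis UMIs and a median scrambled cell 5, and the median was 1 in each erlotinib library. At least 5 mitosis UMIs were found in 59.4% of untreated (95% binomial interval 55.9 to 62.7) and 58.1% of scrambled cells (51.3 to 64.7). With erlotinib this share was 9.15% with CPI-455 (15 cells, 5.21 to 14.6), 1.81% with KDM5A shRNA (6 cells, 0.666 to 3.89), 11.3% in the library labelled KDM5A and KDM5B shRNA (14 cells, 6.31 to 18.2) and 10.5% with KDM5A cDNA (11 cells, 5.35 to 17.97). Both drug-free shares were above all 4 erlotinib shares, and the KDM5A shRNA share was the lowest. These intervals of shares of cells, here and below, cover the sampling of cells within 1 library. They do not cover the spread between libraries, so they are no test of the conditions. Before thinning the shares were 67.8%, 86.7%, 36.1%, 25.9%, 36.8% and 40.5%, from untreated to KDM5A cDNA in the order used for levels, and the intervals of KDM5A shRNA (21.6 to 30.7) and CPI-455 (29.5 to 43.2) overlapped.

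The 2 controls had a like share at 5 UMIs but differed above and below it. At least 10 mitosis UMIs were in 36.5% of untreated (33.2 to 39.9) and 22.5% of scrambled cells (17.2 to 28.6). At least 1 UMI was in 92.7% of untreated and 99.1% of scrambled cells, so untreated cells held more cells without any mitosis UMI and more cells rich in them. In the erlotinib libraries at least 10 UMIs were in 6.10%, 0.904%, 5.65% and 3.81% of cells, which is 10, 3, 7 and 4 cells. At least 1 UMI was in 61.0%, 50.9%, 54.0% and 66.7% of these cells after thinning, and in 83.2%, 80.7%, 80.9% and 89.3% before it.

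**Figure D4:**
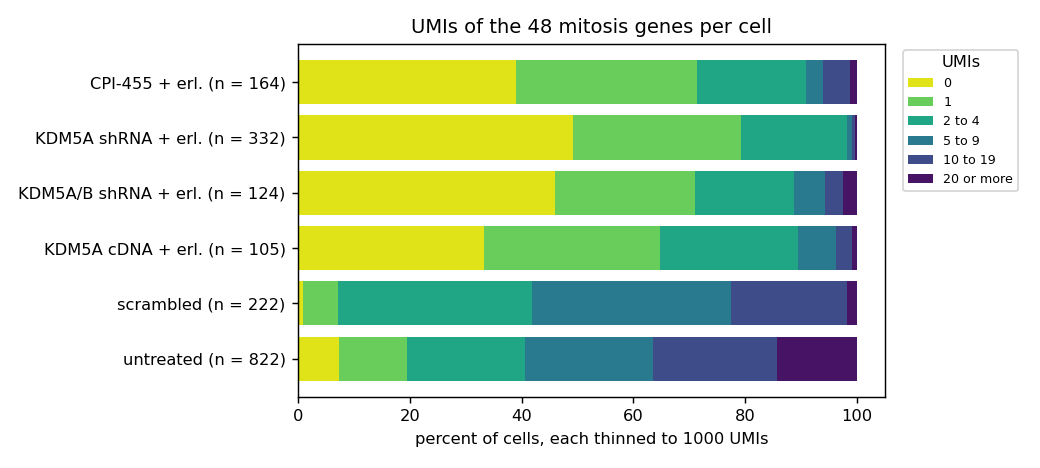
Percent of cells by the number of mitosis-gene UMIs after each cell was thinned to 1000 UMIs, 1 bar per library with its number of cells. At least 5 UMIs are in 59.4% of untreated and 58.1% of scrambled cells, and in 1.81% to 11.3% of cells of the erlotinib libraries.

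A single UMI says little of a cell, since free RNA in droplets can give one and this line has no cell type that lacks these genes. Barcodes under 500 UMIs, which were not kept, carried the mitosis sum at 8918 CPM untreated, 8272 scrambled and 1783, 670.2, 1510.2 and 2314 CPM in the erlotinib libraries, in the same order of magnitude as the cells of each library. By gene, ARL6IP1 was found in 27.6% and 27.9% of drug-free cells and 11.6%, 17.8%, 26.6% and 21.0% of erlotinib cells after thinning. CKS2 was found in 29.1% and 20.7% of drug-free cells and 8.54%, 7.53%, 3.23% and 7.62% of erlotinib cells, TPX2 in 26.6% and 25.2% of drug-free cells and 4.27%, 1.81%, 6.45% and 3.81% of erlotinib cells, and TOP2A in 33.2% and 18.5% of drug-free cells and 1.83%, 0.301%, 3.23% and 0% of erlotinib cells. The ARL6IP1 share was lowest with CPI-455, and the one labelled KDM5A and KDM5B shRNA was close to the drug-free shares. TPX2 and TOP2A were in few erlotinib cells. Before thinning TOP2A was in 3.82% of KDM5A cDNA cells.

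What remained of the mitosis UMIs with erlotinib was concentrated in few cells, but this was not shown for KDM5A shRNA. To keep ranking and counting apart, cells were ranked by the members at odd places of the alphabetical list and the UMIs of the even members were counted, and the reverse. The top 10% of cells then held 52.4% of the mitosis UMIs with CPI-455 (46.9 to 58.1), 27.0% with KDM5A shRNA (22.2 to 32.3), 60.5% in the library labelled KDM5A and KDM5B shRNA (54.3 to 66.5) and 36.3% with KDM5A cDNA (29.8 to 43.5). In the controls they held 25.6% untreated (24.6 to 26.6) and 21.6% scrambled (19.5 to 23.8). These intervals count each UMI as an independent draw, although UMIs of a cell go together, so they are too narrow. By these values the shares with CPI-455, with KDM5A cDNA and in the library labelled KDM5A and KDM5B shRNA lay above both controls. The KDM5A shRNA interval overlapped both, and without its richest cell the share was 20.8%. Ranking by 24 genes is coarse where UMIs are few, which lowers the share. KDM5A shRNA cells averaged 0.958 mitosis UMIs, so the overlap does not show that their UMIs were spread as in the controls. Ranked by all 48 genes at once, which raises the share where UMIs are few, the values were 30.3%, 27.2%, 62.3%, 46.5%, 66.3% and 51.2% from untreated to KDM5A cDNA.

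Outside the top cells of the cross-ranking a cell held on average 7.42 mitosis UMIs untreated and 5.79 scrambled, but 1.03, 0.778, 0.928 and 1.38 with erlotinib. The top cells averaged 22.8 and 13.8 UMIs in the controls, and 9.80, 2.53, 12.1 and 6.70 with erlotinib. In the CPI-455 library and that labelled KDM5A and KDM5B shRNA, the richest cells held 34 and 33 mitosis UMIs of 1000, within the range of untreated cells, whose highest was 48. The sums of odd and even members correlated over cells with a Spearman rho of 0.77 untreated and 0.50 scrambled, and with 0.25, 0.039, 0.48 and 0.35 with erlotinib. These are descriptions over cells that share a library, and rho falls where counts are low.

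The cells with at least 5 thinned mitosis UMIs held 51.2%, 25.3%, 65.4% and 44.3% of the full mitosis UMIs of the erlotinib cells, and 8.21%, 1.72%, 10.0% and 12.8% of all UMIs. Cells with fewer carried the mitosis sum at 1048, 717, 730.2 and 1113 CPM, against 2399 untreated and 3876 scrambled. Cells were sorted by UMIs of the same genes, so the excess above 5 and the lower level below it are partly built in. These values are thus no separate evidence of concentration. Median total UMIs of the cells with at least 5 against those with fewer were 5065 and 4020, 4289.5 and 3594.5, 4645 and 4900, and 3439 and 4061 in the erlotinib libraries, so deeper cells were not regularly the richer ones. Without the cell richest in mitosis UMIs, the sum was 1676 CPM with CPI-455, 833 with KDM5A shRNA and 1622 in the library labelled KDM5A and KDM5B shRNA.

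Genes differed in how far they followed these few cells. For each gene, cells of a library with at least 1000 UMIs were ranked by the other 47 genes, the share of the gene's UMIs in the top 10% was taken, and the shares of the 4 erlotinib libraries were averaged with equal weight. With the UMIs of the 4 erlotinib libraries pooled, those cells held 9.56% to 9.93% of all UMIs, depending on the gene. By library this was 9.10% to 9.46% with CPI-455 and 8.63% to 9.38% with KDM5A shRNA. It was higher with KDM5A cDNA, at 12.6% to 13.1%, than in the library labelled KDM5A and KDM5B shRNA, at 8.61% to 9.78%. In the controls it was 11.4% to 12.3% scrambled and 11.3% to 12.3% untreated. Over the 28 genes with at least 50 erlotinib UMIs the median of this mean share was 56.6%, against 24.2% scrambled and 31.2% untreated. It was highest for TOP2A, at 92.3%, whose 85 erlotinib UMIs came from 17 cells, 1 of them with 28 UMIs. DLGAP5 (89.8%), HMMR (83.8%) and TPX2 (82.5%) followed. At the other end were G2E3 (9.76%), TMPO (19.6%), LBR (24.6%), ARL6IP1 (28.7%) and CKS2 (29.4%), whose UMIs were spread over 83, 226, 153, 405 and 199 erlotinib cells.

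The libraries differed in this share, so it is also given for each of them. From CPI-455 to KDM5A cDNA in the order used for levels, TOP2A was at 94.3%, 100%, 100% and 75%, the last of 4 UMIs. The 100% with KDM5A shRNA was of 14 UMIs, and TOP2A was in only 0.267% of that library's cells before thinning. In the library labelled KDM5A and KDM5B shRNA it was of 32 UMIs, with TOP2A in 3.29% of cells. TPX2 was at 82.7%, 72.8%, 91.4% and 83.3%. TMPO was at 15.3%, 9.48%, 32.2% and 21.3%, and CKS2 at 34.7%, 20.1%, 33.9% and 28.8%. In each of the 4 libraries TOP2A and TPX2 thus lay above TMPO and CKS2. These genes were picked by the mean of the same shares, so their order is no separate evidence. The KDM5A shRNA library, where the list was least concentrated, gave 37.6% of the erlotinib UMIs of TMPO and 42.3% of those of CKS2, but 16.5% of those of TOP2A. With all erlotinib UMIs summed, which mixes these libraries, the range was 11.1% for G2E3 to 96.5% for TOP2A. PTTG1, which was not called, had a mean share of 59.6%, with up to 27 of its 384 UMIs in 1 cell.

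**Figure D5:**
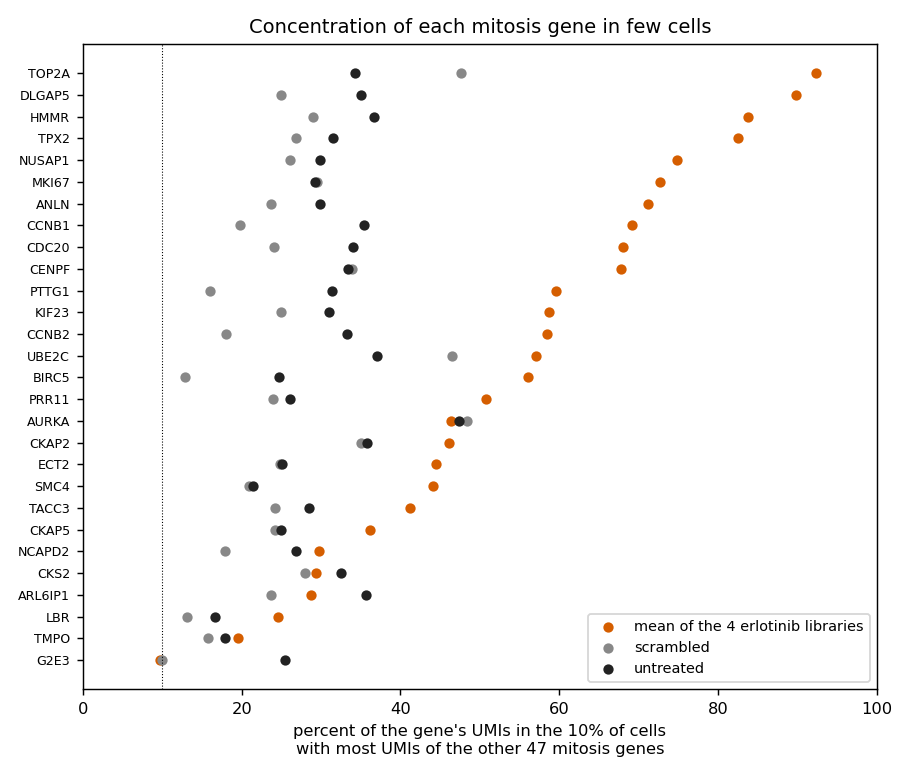
Percent of a gene's UMIs in the 10% of cells with most UMIs of the other 47 mitosis genes, for the 28 genes with at least 50 UMIs over the erlotinib libraries, as the equal-weight mean of these 4 libraries and for the same genes in scrambled and untreated cells. The erlotinib means run from 9.76% for G2E3 to 92.3% for TOP2A, and the dotted line marks 10%.

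Within the untreated library the genes themselves varied more between cells than most genes do. Variation was measured on thinned counts, as the variance minus the mean over the square of the mean, which is 0 for pure counting noise. The median over the 48 genes was 1.15, against 0.248 over 6273 genes with at least 20 thinned UMIs, and 43 of 48 lay above the latter. BUB1 (7.43), GAS2L3 (6.34), CDCA2 (4.90) and TTK (4.86) were highest, each with 65 or fewer thinned UMIs. CDC25C (-0.96), ECT2 (-0.47), KIF11 (-0.44) and NCAPD2 (0.071) were lowest. In scrambled cells 27 genes could be measured, with a median of 0.493 against 0.106 over all genes, and 17 lay above the latter. In the erlotinib libraries 1 to 4 genes could be measured, so no list value is given there. ARL6IP1 was the only gene measured in all 4, at 2.47, 0.642, 2.14 and 0.597.

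Other genes of mitosis moved in the same direction as the 48. Of 60 further mitosis genes tested, 58 fell, against 13.5% of all genes, and 0 rose, against 10.0% of all genes. Their median log2 fold was -2.94. HMGB2, a DNA-bending chromatin protein with the most UMIs of them, stood at 575 CPM untreated and 397 scrambled, and 68.7, 24.4, 74.4 and 54.2 CPM with erlotinib, a change of -3.13 in log2 (edgeR, SE 0.35, adjusted p = 0.00046). The condensin subunit SMC2 (-2.61) and the midzone protein PRC1 (-2.48) also fell. So did the mitotic kinase PLK1, at 135 CPM untreated and 60.3 scrambled, and 13.7, 4.38, 12.4 and 11.9 CPM with erlotinib, and cyclin A2 (CCNA2), with a log2 fold of -3.86 (adjusted p = 0.000506). WEE1, the kinase that restrains CDK1, at -0.018 (adjusted p = 0.977), and UBE2S, an E2 enzyme of the anaphase-promoting complex, at -0.69 (adjusted p = 0.239), did not pass. Those 2 are named because they were the exceptions. S phase genes fell in 41 of 41, again against 13.5% of all genes, with a median log2 fold of -4.05. By these medians they fell more than the 48 genes, a difference that was not tested.

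Of 19 regulators of this programme tested, 10 fell, against 13.5% of all genes, and 3 rose, against 10.0% of all genes. FOXM1, the activator of G2 and M phase genes, stood at 137 CPM untreated and 124 scrambled, and 34.3, 12.5, 20.7 and 45.8 CPM with erlotinib, a change of -2.24 in log2 (edgeR, SE 0.38, adjusted p = 0.00323). MYBL2, which encodes B-MYB, was at 93.8 CPM untreated and 127 scrambled, and 14.9, 1.25, 4.13 and 16.9 CPM with erlotinib, and its fold was -3.72 in log2 (edgeR, SE 0.59, adjusted p = 0.00315). Of the MuvB core, LIN9 (-2.75), LIN52 (-1.49) and LIN54 (-1.87) fell, as did the repressors E2F7 (-4.84) and E2F8 (-4.21), the retinoblastoma gene RB1 (-1.10) and the CDK inhibitors CDKN2C (-3.80) and CDKN2D (-2.15). RBL2, which encodes the p130 of resting cells, rose (0.87), and so did 2 inhibitors of the G1 CDKs. CDKN1B, which encodes p27, was at 68.2 CPM untreated and 44.8 scrambled, and 137, 119.6, 152 and 66.1 CPM with erlotinib, a change of 1.10 in log2 (edgeR, SE 0.32, adjusted p = 0.0303). Its KDM5A cDNA level lay below the untreated level, so the groups overlapped. CDKN2B, which encodes p15, had a log2 fold of 2.53 (adjusted p = 0.00674). CDKN1A, which encodes p21, at -0.36 (adjusted p = 0.686), E2F4 at -0.77 (adjusted p = 0.0636), E2F5 at -0.22 (adjusted p = 0.753), CDKN2A at 0.41 (adjusted p = 0.218) and FZR1 at -0.49 (adjusted p = 0.422) did not pass.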

How the data were processed

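The deposited values are raw UMI counts for each gene symbol in each barcode, not normalized. The authors used STAR and FastQC with GRCh37.p13 (hg19), per the submitters' processing notes. Versions, the counting tool and its strand setting are not given in the sources used here. UMIs were summed over kept cells (at least 500 UMIs, at most 20% mitochondrial) and scaled to CPM. At 3 counts, a count of 0 allows 0.758 CPM untreated to 5.08 CPM with KDM5A cDNA. No doublet caller was run on this single cell line.

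Erlotinib was tested with edgeR 4.0.16 in R 4.3.3 (TMM, filterByExpr, robust quasi-likelihood test, Benjamini-Hochberg adjustment over all 10445 tested genes), with DESeq2 1.42.0 as an alternative. SEs of the edgeR log2 folds were back-calculated, as the size of the fold over the square root of the test's F statistic. They are not an output of edgeR. The script was checked on simulated data. The labels name no separate cultures, so p-values measure the spread between these 6 libraries. Ratios have conditional Clopper-Pearson 95% intervals, sums Poisson and shares exact binomial ones. Ratio counts and medians used genes with at least 10 UMIs over both libraries. Cells were thinned with numpy 2.4.6.

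The members and the gene lists were chosen with earlier results of these data known. Values per library are given for the gene with the most UMIs of each role, the 10 highest genes, the 6 largest and 6 smallest folds, genes not called or not tested, and the 4 most and 4 least variable genes. A few genes of the other lists are not reported here. Promoter motifs and the per-gene concentration were added later, with results in view. RefSeq promoters are of GRCh38.p14, a build other than the authors', and were matched by symbol only.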

Additional observations from a re-analysis of the deposited data

How the results depend on the processing

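None of the 47 tested genes changed the sign of its log2 fold under any alternative fit. The count called lower was 40. It was 41 in DESeq2, 40 with its size factors, 45 without a filter on low counts, 42 over all barcodes and 42 with at least 1000 UMIs. It was 33 of 37 tested on thinned cells and 37 of 46 without barcodes ending in an undetermined base. With virus and serum as a term, an alternative chosen after seeing the data, it was 37. The fit with the pseudogene split has KDM5A shRNA as its only erlotinib library for the effect, so its count is not given. Leaving out each library in turn gave 30 (untreated) to 44 (KDM5A shRNA), and 0 genes were called higher throughout. Apart from the losses named in the report, the call was lost by GTSE1 and CDC25C in DESeq2. CENPF and CDC25C lost it without barcodes ending in an undetermined base, and CENPF on thinned cells and without the filter. GTSE1, CENPF and CDC25C lost it with the virus and serum term, GTSE1 without CPI-455, and CDC25C without either shRNA library. The call was also lost by GTSE1, CENPF and CDC25C without KDM5A cDNA, and by GTSE1, CENPF and BIRC5 without the scrambled library. Without scrambled or untreated, the lone drug-free library was assumed to vary like the others. Over all genes, the count called lower was 1412, and 509 to 1768 in the alternatives. No paired analysis was possible because the labels carry no replicate numbers.

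Some sums and ratios moved by more than their counting interval, and the cause was not tested. Without the cell richest in mitosis UMIs, an alternative chosen after seeing the data, the sums were 9517 CPM (untreated), 1676 CPM (CPI-455), 833 CPM (KDM5A shRNA) and 1622 CPM (labelled KDM5A and KDM5B shRNA), with log2 ratios of -2.51 (CPI-455 against untreated) and, against scrambled, -2.95 (KDM5A shRNA) and -1.99 (labelled KDM5A and KDM5B shRNA). KDM5A cDNA against CPI-455 then turned to 0.027, and against the library labelled KDM5A and KDM5B shRNA to 0.074. The cross-ranked share with KDM5A shRNA was 20.8%.

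With at most 10% mitochondrial UMIs, CPI-455 stood at 2173 CPM and KDM5A cDNA at 1941 CPM. The log2 ratios were -2.15 (CPI-455 against untreated), -1.73 (KDM5A cDNA against scrambled), -1.21 (KDM5A shRNA against CPI-455), -0.25 (labelled KDM5A and KDM5B shRNA against CPI-455), and 1.05 and 0.088 (KDM5A cDNA against KDM5A shRNA and against the library labelled KDM5A and KDM5B shRNA). Without barcodes ending in an undetermined base, the sums were 2322 CPM (CPI-455), 1979 CPM (KDM5A cDNA) and 9436 CPM (untreated). The same 6 ratios were -2.02, -1.70, -1.28, -0.37, 1.04 and 0.14, and the cross-ranked share with KDM5A shRNA was 33.3%.

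On cells thinned to 1000 UMIs the sums were 2105 CPM (labelled KDM5A and KDM5B shRNA), 1933 CPM (KDM5A cDNA) and 8968 CPM (untreated). The log2 ratios were -2.21 (CPI-455 against untreated), -1.65 (labelled KDM5A and KDM5B shRNA against scrambled), -1.78 (KDM5A cDNA against scrambled), -0.44 (scrambled against untreated), 0.12 and -0.00424 (labelled KDM5A and KDM5B shRNA, and KDM5A cDNA, against CPI-455) and 1.14 (labelled KDM5A and KDM5B shRNA against KDM5A shRNA). With TMM library sizes the untreated sum was 9237 CPM and scrambled against untreated -0.49. Untreated cells of at least 1000 UMIs held 9855 CPM, and over all barcodes the library labelled KDM5A and KDM5B shRNA was at -1.87 against scrambled.

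Thinned to 2000 UMIs, at least 1 mitosis UMI was in 84.7% (CPI-455), 72.8% (KDM5A shRNA), 79.2% (labelled KDM5A and KDM5B shRNA), 89.8% (KDM5A cDNA) and 97.9% (untreated) of cells, and at least 5 in 16.9% (CPI-455), 4.98% (KDM5A shRNA), 20.5% (KDM5A cDNA), 89.0% (scrambled) and 77.5% (untreated). The top 10% of scrambled cells then held 24.7%, and the cross-ranked untreated share was 27.3%. Depth limits the genes with few erlotinib UMIs most.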
